A study of Mus musculus with 48 samples.

Results

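The 8 libraries of chow-fed mice are the control arm of a feeding study, and they were chosen by their sample titles alone (CHOW 1 to CHOW 8), 8 of 48 libraries in all. Each holds total RNA of epididymal white adipose tissue, a visceral fat depot, of a C3H/HeOuJ mouse, an inbred strain, after 6 months on PicoDiets chow with free access to food. RNA was counted on the NanoString nCounter Mouse Immunology panel, in which a barcoded probe pair per gene binds its RNA and is counted without amplification. Of 547 endogenous genes on the panel, 470 had a mean scaled count of at least 10 on chow and were tested, and 77 were not. The other 40 libraries, of the same strain, tissue and feeding time, came from mice on 5 diets, described in the design as giving 42% of calories as carbohydrate and 42% as fat: starch/oleate and sucrose/oleate, with 9 libraries each, starch/palmitate with 7, sucrose/palmitate with 8, and a Western diet with 7. The labels give neither age nor litter, and nothing says how many cages held the chow mice, so p-values measure the spread between these 8 libraries.

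White fat consists of lipid-filled adipocytes, by volume its main part, among blood vessels, fibroblasts and immune cells, of which macrophages are the most frequent. Adipocytes make Cfd (adipsin, complement factor D), a secreted protease that starts the alternative complement pathway, and Pparg, the nuclear receptor that drives fat cell formation. Macrophages in fat carry Emr1 (now Adgre1, the F4/80 antigen). Those that gather around dying adipocytes also carry Itgax (CD11c) and Trem2, a lipid-sensing receptor that signals through Tyrobp. The data below describe how such genes were ordered by level in fat of chow-fed mice and which of them moved together from mouse to mouse. In a whole fat pad, fewer cells of a type and less RNA per cell cannot be told apart.

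A chow library held 546774 to 632214 endogenous counts (median 560016). Single counts of the negative control probes averaged 7.48, with a range of 3 to 17, so genes under a mean of 10 lay near background. Each library was scaled by the geometric mean of its 14 reference genes, and the scale factors ran from 0.839 in CHOW 4 to 1.15 in CHOW 3. Of the reference genes, Gusb was lowest in CHOW 4 with 1057 counts and highest in CHOW 5 with 3287, against the order of Cfd given below. Ppia, Sdha, Eef1g and Polr2a ranked with Cfd (rho from 0.81 to 0.95, a description over 8 libraries). Alternatives chosen after the data were seen left out Gusb or all 5 of these. The summed counts of 3 adipocyte markers (Cfd, Pparg and Cd36) ran from 83966 to 303893 and of 5 macrophage markers from 2958 to 8336, so the labelled tissue carried its defining genes in every library. No 2 chow libraries were copies: over 28 pairs the lowest chi-square per degree of freedom was 15.7. CHOW 4 stood apart from the other libraries, with the highest Cfd count and the lowest counts of most macrophage genes, and slopes on Cfd described below that lost their call without it are given with that loss.

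The order of levels was led by Cd36, the fatty acid transporter of adipocytes, macrophages and vessels, by B2m, the light chain of MHC class I, and by Cfd. Cd36 averaged 75315 ± 8257 scaled counts, B2m 75272 ± 9130 and Cfd 70397 ± 68829 (SD, n = 8), and by their means Cd36, B2m and Cfd lay far above Cd74, the invariant chain of MHC class II, at 16892 ± 3508. Cd1d1 (10446 ± 2833), which presents lipid antigens, and App (10027 ± 791), the amyloid precursor protein, followed as the only other genes with a mean above 10000. Cfd was the highest gene in some libraries and rank 4 at its lowest, whereas Cd36 and B2m stayed within ranks 1 to 3. Cd36 and B2m differed by less than their SD, as did Cd1d1 and App, so neither pair has a settled order.

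Below them came antigen presentation and macrophage genes: H2-Aa at 9436 ± 1848, the protease Ctss at 8684 ± 4187, the matrix gene Fn1 at 8354 ± 1567, the integrin Itgb1 at 8081 ± 337, the central complement component C3 at 7455 ± 907 and the signalling adaptor Tyrobp at 7409 ± 3357. The steps between these neighbours were smaller than their SDs. The spread was uneven among them: Ctss ran from 1551 to 13622 counts and Tyrobp from 1973 to 11582, while Itgb1 stayed between 7434 and 8384. Cd81, C1s, Bcap31, Ctnnb1, Cd164, H2-K1, Ifngr1 and Ccl9 completed the 20 highest genes, with means from 7391 (Cd81) to 4615 (Ccl9). The panel has 1 probe per gene and counts molecules, so no division by length was made, but probes can differ in efficiency, which limits the order between genes and not the comparison of libraries.

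Of the 547 genes, 6 averaged 10000 or more, 88 lay from 1000 to under 10000, 200 from 100 to under 1000, 176 from 10 to under 100, and 77 under 10. The 20 highest genes took 51.8% to 71.5% of a library's endogenous counts. The order of the 470 tested genes was alike between libraries (rho from 0.92 to 0.99 over 28 pairs, given as a description across genes of the same panel). Classical inflammatory cytokines lay near the floor: Tnf averaged 21.4 ± 6.24 counts, Il1b 22.4 ± 5.84, Il6 13.8 ± 5.93 and Cxcl10 18.5 ± 6.48 (SD, n = 8). T cell and B cell genes were also low, with Cd3e, a subunit of the T cell receptor complex, at 20.2 ± 7.87 and Ms4a1 (CD20) at 53.2 ± 20.6. Markers of macrophages were far higher, with Emr1 at 1814 ± 718 and Itgax at 1783 ± 914.

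**Figure D1:**
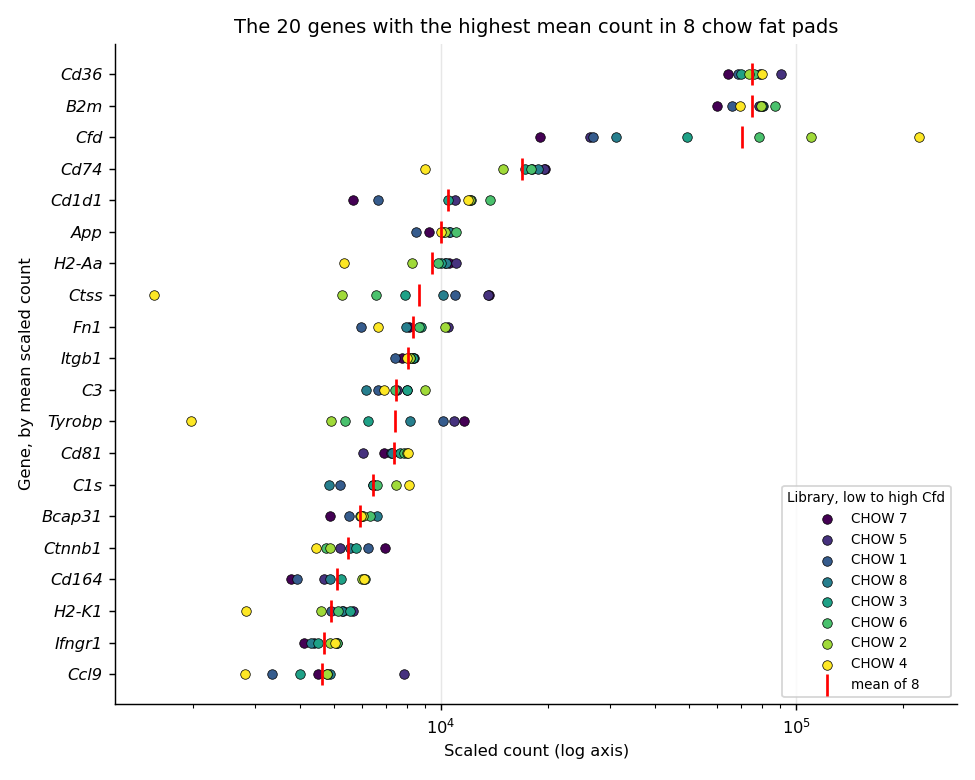
Scaled counts (log axis) of the 20 genes with the highest mean in the chow libraries; each point is a library, coloured by its rank on Cfd, and the red bar is the mean of 8. Cfd ran from 18982 to 222161, Ctss and Tyrobp were lowest in CHOW 4, and Itgb1, App and Cd81 hardly spread.

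Cfd varied more on the log2 scale than any other of the 20 highest genes. It had 26850, 110122, 49159, 222161, 26289, 78565, 18982 and 31046 scaled counts in CHOW 1 to CHOW 8. CHOW 4, 2 and 6 were high and CHOW 7, 5, 1 and 8 low, an 11.7-fold range, and Cfd took 3.51% to 33.4% of all endogenous counts of a library. On the log2 scale the libraries were spaced without an open gap between low and high ones; the widest step, 1.01, lay between CHOW 2 and CHOW 4. Pparg, which activates adipocyte genes, had 788, 1152, 855, 1826, 880, 1182, 633 and 886 counts in the same libraries, with the highest value again in CHOW 4 and the lowest in CHOW 7. Cd36 had 68531, 73559, 69935, 79906, 90905, 76294, 64350 and 79043, with its highest value in CHOW 5, and its slope on Cfd did not pass the threshold (0.02 ± 0.04, SE, adjusted p = 0.728). A slope is here the log2 change of a gene per log2 unit of Cfd across the 8 libraries, from edgeR's quasi-likelihood fit, with p-values adjusted by Benjamini-Hochberg over 469 genes and a threshold of 0.05.

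Macrophage genes ran the other way. Itgax had 2454, 948, 1810, 169, 2472, 1267, 2808 and 2335 counts in CHOW 1 to CHOW 8, and its order was the exact reverse of that of Cfd (rho = -1, exact permutation p = 4.96e-05, the smallest that 40320 pairings can give for a rank correlation; r = -0.93, exact permutation p = 2.48e-05; two-sided, as are all p-values here). Without CHOW 4 and CHOW 2, the libraries farthest from the median of Cfd, r was -0.99. Emr1 had 1939, 1440, 1522, 721, 2844, 1388, 2776 and 1879 counts, lowest in CHOW 4 and highest in CHOW 5 and 7 (rho with Cfd -0.95, exact permutation p = 0.00114; r = -0.94, exact permutation p = 0.000273; r without the same libraries -0.89). Trem2 had 1187, 422, 686, 144, 1106, 512, 1421 and 905 counts, also lowest in CHOW 4 and highest in CHOW 7 (rho = -0.98, exact permutation p = 0.000397; r = -0.98, exact permutation p = 4.96e-05; r without the same libraries -0.99). Pparg, by contrast, followed Cfd upward (rho = 0.86, exact permutation p = 0.0107; r = 0.95, exact permutation p = 0.000769; r without the same libraries 0.88). Each of these belongs to a family of 469 correlations with Cfd; adjusted over the family, p for rho was 0.00145 for Itgax, 0.00973 for Emr1, 0.00454 for Trem2 and 0.0479 for Pparg.

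**Figure D2:**
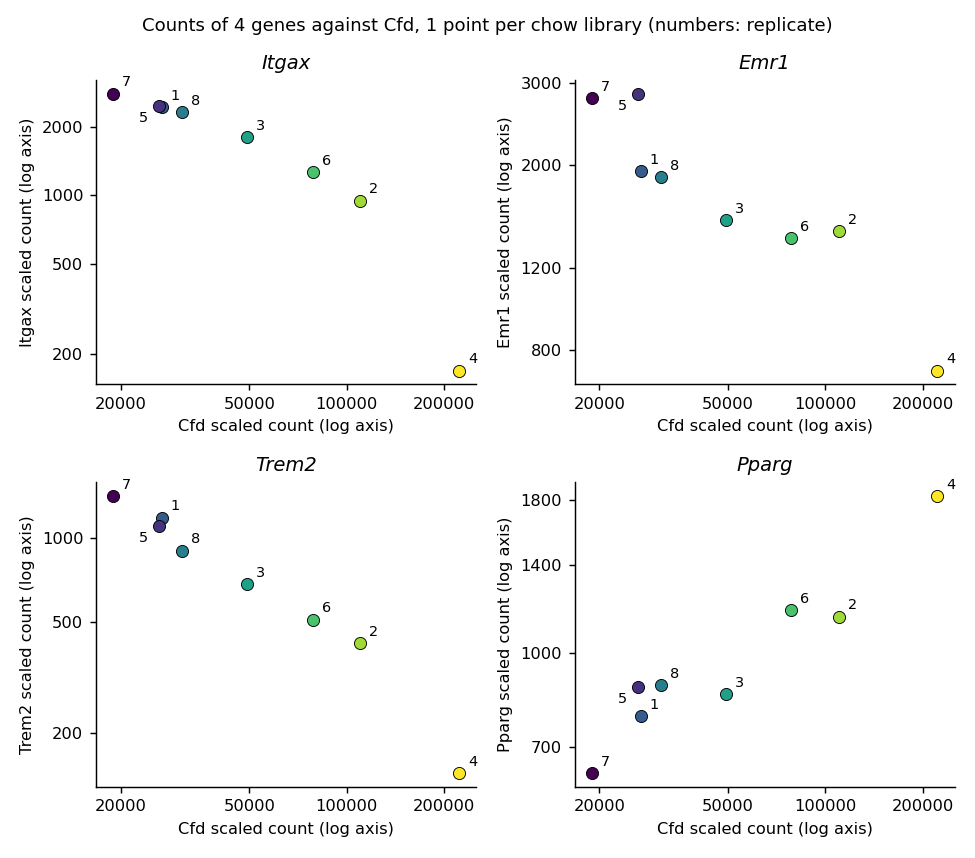
Scaled counts of Itgax, Emr1, Trem2 and Pparg against Cfd (log axes), a point per chow library with its replicate number. Itgax, Emr1 and Trem2 fell and Pparg rose along Cfd, and CHOW 4 lay at the end of each panel, with 169 counts of Itgax and 1826 of Pparg.

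Because these genes moved together or apart, their promoter windows are shown, from the RefSeq table of build GRCm38.p6 (250 bases before to 50 bases after a transcript start, written 5′ to 3′ on the strand of the gene). Capitals mark matches, on either strand, to 3 motifs: the PU.1 core GAGGAAG, the C/EBP motif TTGCNNAA and the nuclear receptor motif AGGTCA. PU.1 is the main transcription factor of macrophages, C/EBP proteins act in adipocytes and macrophages, and the nuclear receptor motif is a part of the site that Pparg and its partner bind. The windows are those of Cfd and of Pparg (the window of 3 that holds C/EBP matches), which rose together, and of Itgax, Trem2 and Ctss, which fell. The Pparg windows not shown each hold the nuclear receptor motif and no C/EBP match.
Cfd, chr10:79890603-79890902, plus strand: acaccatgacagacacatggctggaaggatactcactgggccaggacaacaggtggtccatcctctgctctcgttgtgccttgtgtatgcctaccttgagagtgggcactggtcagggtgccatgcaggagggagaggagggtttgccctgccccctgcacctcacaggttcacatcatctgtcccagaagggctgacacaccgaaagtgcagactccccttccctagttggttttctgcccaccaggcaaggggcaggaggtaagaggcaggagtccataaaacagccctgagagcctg
Pparg, chr6:115421816-115422115, plus strand: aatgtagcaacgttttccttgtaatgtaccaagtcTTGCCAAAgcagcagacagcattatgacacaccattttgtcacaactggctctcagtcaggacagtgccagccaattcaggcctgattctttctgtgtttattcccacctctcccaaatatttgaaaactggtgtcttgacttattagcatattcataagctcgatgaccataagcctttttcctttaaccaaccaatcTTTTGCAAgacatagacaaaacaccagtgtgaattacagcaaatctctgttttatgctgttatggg
Itgax, chr7:128129300-128129599, plus strand: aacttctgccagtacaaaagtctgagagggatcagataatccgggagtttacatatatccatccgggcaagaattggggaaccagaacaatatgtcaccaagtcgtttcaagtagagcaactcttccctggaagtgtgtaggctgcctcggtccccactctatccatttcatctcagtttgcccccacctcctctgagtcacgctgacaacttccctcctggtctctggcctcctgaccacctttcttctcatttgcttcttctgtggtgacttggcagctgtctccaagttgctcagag
Trem2, chr17:48346151-48346450, plus strand: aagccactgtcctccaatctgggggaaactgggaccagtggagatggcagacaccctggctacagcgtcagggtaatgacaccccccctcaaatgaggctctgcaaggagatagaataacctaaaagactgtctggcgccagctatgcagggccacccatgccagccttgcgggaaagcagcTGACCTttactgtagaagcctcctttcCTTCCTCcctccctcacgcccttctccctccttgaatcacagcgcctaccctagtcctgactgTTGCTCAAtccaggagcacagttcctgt
Ctss, chr3:95526536-95526835, plus strand: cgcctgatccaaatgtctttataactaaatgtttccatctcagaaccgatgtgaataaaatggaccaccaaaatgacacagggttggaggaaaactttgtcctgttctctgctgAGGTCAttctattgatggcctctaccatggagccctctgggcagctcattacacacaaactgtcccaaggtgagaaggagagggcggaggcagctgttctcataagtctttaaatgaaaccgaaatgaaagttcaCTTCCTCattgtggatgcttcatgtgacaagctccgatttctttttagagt
The Trem2 and Ctss windows hold the PU.1 core, as CTTCCTC on the strand shown. Both also hold the nuclear receptor motif, and that of Trem2 a C/EBP match. The Cfd and Itgax windows hold no match to any of these motifs. Over all genes below, the PU.1 core was found in 23.2% of 99 windows of genes with a negative slope on Cfd and in 12.1% of 33 windows of genes with a positive slope, against 18.1% of 437 windows of the tested panel genes and 13.6% of 32851 windows of all genes in the table. The C/EBP motif was found in 11.1% and 12.1% of the negative and positive windows, against 11.7% of the panel's and 10.8% of all, and the nuclear receptor motif in 12.1% and 18.2%, against 13.7% and 16.3%. Of the 470 tested genes 355 had a window in the table. A match is a description of letters and not a binding site.

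Across the panel, 34 genes had a positive slope on Cfd past the threshold (7.25% of 469) and 103 a negative one (22%), 137 in all (29.2%). The balance depended on the scaling: with TMM scaling 71 were positive and 89 negative, with DESeq2 and its own size factors 76 and 86, with scaling to the total count 13 and 152, and with scaling to the spiked-in positive controls 9 and 90. With the reference genes other than Gusb 24 were positive and 118 negative, and with only the reference genes that did not rank with or against Cfd these were 35 and 96. The median slope over all genes was -0.06, and -0.01 with TMM scaling. Without CHOW 4, 17 were positive and 58 negative, and without CHOW 4 and 2 these were 4 and 45. By rank alone, 24 genes followed Cfd (5.12%) and 81 opposed it (17.3%), each with an exact permutation p of rho adjusted over 469 genes under the threshold.

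Genes that ranked with Cfd and against both Emr1 and Itgax, with all 3 rank correlations past the threshold, numbered 16 of 467 (3.43%), and genes with the reverse pattern 60 (12.8%). The 16 included Xbp1, Stat5a, C1qbp, Cd81, Zeb1, Ccl24, Ets1, Mme, Klra6, Fas, Itga6, Cd164, Tlr5, Irak1 and Cd79a. Klra6 reached the mean of 10 only through CHOW 4, with 26.2 counts there and 6.75 to 10.4 elsewhere, within the range of the negative controls. Without CHOW 4 its edgeR slope on Cfd did not pass (0.21, adjusted p = 0.544), so its place among the 16 carries little weight. The 60 were headed by macrophage and leukocyte genes such as Ctss, Tyrobp, Lilrb4, Blnk, Ly86, Ptprc, Tgfb1, Cd48, Msr1, Ly96, Ikzf1, Card9 and Prkcd, which like Itgax had the exact reverse of the order of Cfd (rho = -1). Since Itgax and Cfd were exact reverses, a gene's rho with Itgax is its rho with Cfd with the sign turned, and these are not separate measurements. With all 3 fitted slopes in place of ranks, the counts were 19 (4.07%) and 81 (17.3%).

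**Figure D3:**
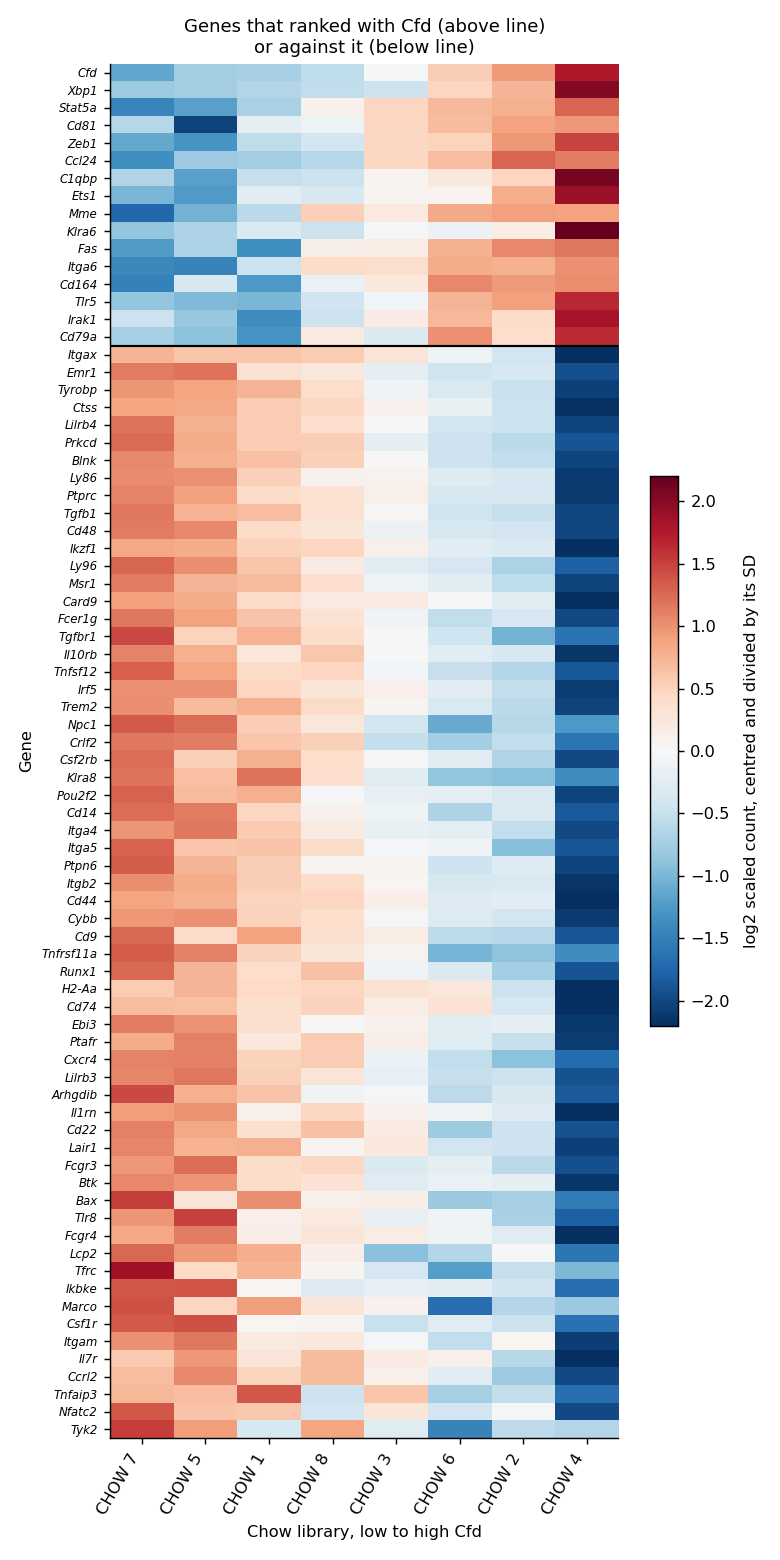
Log2 scaled counts, centred and divided by their SD over 8 libraries, of Cfd and genes that ranked with it (above the line; not every one of the 16 is drawn) and of Itgax, Emr1 and the 60 genes that ranked against it (below), with libraries ordered from low to high Cfd. The genes were chosen by these ranks and the libraries are ordered by Cfd, so the grading from CHOW 7 to CHOW 4 follows from that choice.

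Among macrophage genes, 18 of 23 tested had a negative slope on Cfd past the threshold and none a positive one, where 22% of all genes were negative. Emr1, already set against Cfd above, is among the 18. Their median slope was -0.41, against -0.06 over all genes; with TMM scaling 17 were negative and the median was -0.34, and without CHOW 4 11 were negative, with a median of -0.32. Of the receptors, Emr1 fell with a slope of -0.48 ± 0.07 (SE, adjusted p = 0.000899) and Csf1r, the receptor for the growth factor that keeps macrophages alive, with -0.23 ± 0.05 (adjusted p = 0.00707; -0.22 and 0.0775 without CHOW 4). Cd14, the endotoxin coreceptor, had 621, 484, 520, 300, 760, 431, 786 and 549 counts in CHOW 1 to CHOW 8 and a slope of -0.35 ± 0.05 (adjusted p = 0.00104). Msr1, a scavenger receptor for modified lipoproteins, had 652, 299, 399, 120, 678, 364, 866 and 534 counts, high where Itgax was high. Lilrb4, an inhibitory receptor of myeloid cells, and Itgb2, the chain that pairs with CD11b and CD11c, had slopes of -0.78 ± 0.07 and -0.75 ± 0.09. Itgax had the lowest slope of all 469 genes, -0.94 ± 0.15, which became -0.62 without CHOW 4 (adjusted p = 0.000252).

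Within the cell, the adaptors Tyrobp and Fcer1g, which carry the activating signal of many myeloid receptors, fell together. Tyrobp had 10149, 4911, 6230, 1973, 10875, 5369, 11582 and 8180 counts and a slope of -0.66 ± 0.06 (SE, adjusted p = 0.000136), and Fcer1g a slope of -0.47 ± 0.05 (adjusted p = 0.000269). Ctss, a lysosomal protease that cuts the invariant chain, had 10933, 5266, 7897, 1551, 13524, 6546, 13622 and 10132 counts and a slope of -0.77 ± 0.10. Cybb, the catalytic subunit of the phagocyte oxidase, had a slope of -0.50 ± 0.06, and Npc1, which exports cholesterol from lysosomes, one of -0.22 ± 0.04. The transcription factors Irf5 and Irf8 had slopes of -0.54 ± 0.07 and -0.44 ± 0.06. All of these were highest in CHOW 7 or CHOW 5 and lowest in CHOW 4, and kept a call without CHOW 4.

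Genes of lipid-associated macrophages, the state described around dying adipocytes, had the lowest median of any list, -0.64, and -0.56 with TMM scaling. Of 5 tested 4 were negative, where 22% of all genes were. Itgax, given above as the exact reverse of Cfd, is 1 of these 4 and adds nothing new to the count. Trem2 had a slope of -0.84 ± 0.07 (SE, adjusted p = 0.000106), which was -0.70 without CHOW 4, and Cd9, a tetraspanin of these cells, had 4553, 2222, 3219, 1224, 3646, 2271, 5440 and 3520 counts and a slope of -0.55 ± 0.05 (adjusted p = 0.000125). Lair1, an inhibitory collagen receptor, had a slope of -0.64 ± 0.08. Genes of resident macrophages had calls in both directions: of 6 tested, Ccl24 and Cd209g rose with Cfd and Marco fell. Of all genes 7.25% were positive and 22% negative, so 1 fall of 6 is near the share of all genes. Without CHOW 4, 1 rose and 1 fell. Cd209g had a slope of 0.19 ± 0.05 (adjusted p = 0.0113), and of 0.14 without CHOW 4 (adjusted p = 0.18). Ccl24, an eosinophil attractant, had 183, 352, 270, 334, 181, 290, 151 and 191 counts (slope 0.36 ± 0.05, adjusted p = 0.00105, and 0.47 without CHOW 4). Marco, a scavenger receptor, had 255, 86.3, 144, 76.3, 186, 41.8, 357 and 162 counts (slope -0.67 ± 0.15, adjusted p = 0.00789). Cd163, the haemoglobin scavenger receptor, had 625, 954, 734, 956, 1499, 1055, 679 and 814 counts, highest in CHOW 5, with a slope of 0.05 ± 0.12 (adjusted p = 0.774).

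Some genes of antigen presentation by MHC class II fell along Cfd. Of 9 class II genes tested, 5 were negative, where 22% of all genes were, with a median of -0.24, 4 were negative with TMM scaling, and without CHOW 4 only 1 was. Cd74 had 18058, 14979, 17204, 9031, 19549, 17894, 19662 and 18758 counts in CHOW 1 to CHOW 8 and a slope of -0.26 ± 0.06 (SE, adjusted p = 0.00758), which was -0.12 without CHOW 4 (adjusted p = 0.042). H2-Aa, an alpha chain of class II, had a slope of -0.24 ± 0.05 (adjusted p = 0.00681; -0.12 and 0.0522 without CHOW 4). Apart from CHOW 4 and CHOW 2, both genes lay in a narrow band. Of 11 dendritic cell genes, 6 were negative (4 without CHOW 4), among them Itgax, given above, and Cd83, a maturation marker, at -0.37 ± 0.04. Of 7 genes of MHC class I and the immunoproteasome, H2-K1 was the only one called (none with TMM scaling), at -0.20 ± 0.06 (adjusted p = 0.0374; -0.06 and 0.393 without CHOW 4).

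Genes that rose with Cfd had mixed functions. Xbp1, a transcription factor of the secretory pathway, had 2427, 3137, 2512, 3968, 2375, 2983, 2357 and 2473 counts in CHOW 1 to CHOW 8, in exactly the order of Cfd (rho = 1, exact permutation p = 4.96e-05; r = 0.97, exact permutation p = 2.48e-05; r = 0.92 without CHOW 4 and 2). Stat5a, which carries growth hormone and cytokine signals, had 351, 465, 439, 511, 320, 459, 306 and 409 counts and the same order (slope 0.20 ± 0.04, SE, adjusted p = 0.006). Zeb1, a zinc finger repressor, had a slope of 0.20 ± 0.03 and Ets1, a factor of endothelial and lymphoid cells, one of 0.16 ± 0.03, which was 0.14 without CHOW 4 and did not pass (adjusted p = 0.0607). Fas, a death receptor, had 139, 320, 235, 333, 174, 291, 144 and 232 counts (slope 0.37 ± 0.07, adjusted p = 0.0033) and Tlr5, the flagellin receptor, 50.2, 94.6, 68.9, 122, 51.0, 89.7, 53.0 and 60.8 (slope 0.38 ± 0.05, adjusted p = 0.000775). Both were high in CHOW 4, 2 and 6 and low in CHOW 1, 5 and 7. Pparg had a slope of 0.36 ± 0.04 (adjusted p = 0.000426) and of 0.30 without CHOW 4 (adjusted p = 0.0124), and was the only called gene of 5 tested in the adipocyte list. Smaller positive slopes depended on the scaling: with the total count and with the positive controls, Stat5a, Zeb1, Ets1 and Cd209g did not pass. Nor did C1qbp, Ifih1, Bst2, Irf7, Tgfb3 and Cdh5, which are described below. With the positive controls Xbp1 and Cd55 did not pass either.

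Of the 4 steepest positive slopes, 3 belonged to genes with few counts that were high in CHOW 4 alone. Defb1, an epithelial defensin, had 221 counts in CHOW 4 and 7.97 to 31.4 in the other libraries, Ptgs2, the inducible cyclooxygenase, 330 against 33.1 to 56.7, and Gata3, a factor of T cells and epithelium, 197 against 22.9 to 43.6. Without CHOW 4 their slopes were -0.03, 0.03 and -0.18, and none passed. The summed counts of 4 epithelial markers (Defb1, Pigr, Muc1 and Cxcl15, all with a mean of 10 or more) ran from 41.8 to 272, with the highest value in CHOW 4 and the next, 193, in CHOW 1; their part in these slopes was not tested. Kir3dl1, a receptor of the killer cell immunoglobulin-like family, had 106 counts in CHOW 4 and 8.52 to 48.9 elsewhere, with a slope of 0.78 ± 0.13 (SE, adjusted p = 0.00161) and of 0.67 without CHOW 4 (adjusted p = 0.0555).

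Complement and interferon genes showed few negative slopes. Of 24 complement genes other than Cfd, 3 rose, where 7.25% of all genes were positive, and none fell (5 and none with TMM scaling, 3 and none without CHOW 4): C2, a protease of the classical pathway, with 0.34 ± 0.06 (SE, adjusted p = 0.0033), Cd55, which protects cells from complement, with 0.23 ± 0.04 (adjusted p = 0.00395), and C1qbp, a mitochondrial protein that can bind C1q, with 0.14 ± 0.03 (adjusted p = 0.00698; 0.10 and 0.12 without CHOW 4). The slope of C3, 0.02 ± 0.05, did not pass (adjusted p = 0.771). Of 16 interferon response genes 5 rose and 1 fell (7 and 1 with TMM scaling, 3 and 1 without CHOW 4), with Ifih1, a sensor of viral RNA, at 0.16 ± 0.04, Bst2, which tethers virus particles, at 0.19 ± 0.06, and Irf7 at 0.19 ± 0.06 among those that rose; Irf8 was the gene that fell. Bst2 did not pass without CHOW 4 (0.24, adjusted p = 0.0783), nor without CHOW 1, 2, 6 or 7, and Irf7 lost its call when any library but CHOW 4 was left out. Of 9 genes of transforming growth factor beta signalling, Tgfb1 (-0.32 ± 0.03) and its receptor Tgfbr1 (-0.25 ± 0.03) fell and Tgfb3 (0.18 ± 0.04) rose, a share near the 29.2% of all genes called. With TMM scaling 4 rose and 2 fell.

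Of 15 inflammatory cytokine genes and their relatives, 4 fell and 1, Ptgs2, rose, near the shares of all genes (22% and 7.25%). With TMM scaling 3 fell and 2 rose, and without CHOW 4 1 fell and none rose. Il1rn, the decoy that blocks the interleukin 1 receptor, had 478, 350, 472, 75.1, 969, 401, 917 and 629 counts and a slope of -0.79 ± 0.14 (SE, adjusted p = 0.00349), and the monocyte attractants Ccl2 and Ccl3 had slopes of -0.49 ± 0.13 and -0.54 ± 0.14, which did not pass without CHOW 4 (adjusted p = 0.207 and 0.0775). Cxcl1, a neutrophil attractant named after its value was seen, had a slope of -0.32 ± 0.10 (adjusted p = 0.0443), which did not pass without CHOW 4 (adjusted p = 0.315). Tnf, Il1b, Il6 and Cxcl10 had slopes from -0.17 to 0.15 that did not pass; with means of 13.8 to 22.4 counts they lay close to the negative controls. S100a8, a calcium-binding protein of neutrophils and some monocytes, had 1142, 401, 550, 112, 614, 415, 1251 and 887 counts (slope -0.83 ± 0.11, adjusted p = 0.000713), while its partner S100a9, at 49.0 ± 12.1 counts (SD, n = 8), had a slope of 0.09 ± 0.10 and Csf3r, another neutrophil gene, one of -0.19 ± 0.06 (adjusted p = 0.061). Of 5 neutrophil genes tested S100a8 was the only one called, and with TMM scaling 1 more rose. The summed counts of 3 neutrophil markers, S100a8 among them, ran from 203 in CHOW 4 to 1329 in CHOW 7, in the direction of the macrophage genes. S100a8 made up most of that sum. Without it, the sum of the other markers, S100a9 and Cxcr2, ran from 48.9 in CHOW 6 to 90.6 in CHOW 4. That sum was 78.1 in CHOW 7 and ranked neither with nor against Cfd (rho = 0.05, a description over 8 libraries). The part of neutrophil genes in the macrophage slopes was not tested.

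Of 17 T cell genes none passed in either direction (median -0.08, where 29.2% of all genes were called), although 1 fell with TMM scaling. The summed counts of 4 T cell markers, of which 3 had a mean of 10 or more, ran from 62.8 in CHOW 8 to 121 in CHOW 7. Of 12 B cell genes 4 fell, where 22% of all genes did: Blnk at -0.67 ± 0.05 (SE, adjusted p = 0.000106), Cd22 at -0.61 ± 0.08, Btk at -0.48 ± 0.08 and Pou2f2 at -0.25 ± 0.05, which did not pass without CHOW 4 (-0.19, adjusted p = 0.0659). Blnk and Btk are signalling proteins of B cells and of myeloid cells, whereas Ms4a1, which marks B cells, had a slope of -0.10 ± 0.16 (adjusted p = 0.682). Cd79a, a chain of the B cell receptor, which ranked with Cfd, had one of 0.25 ± 0.08 that did not pass (adjusted p = 0.146). The summed counts of 4 B cell markers ran from 75.7 in CHOW 8 to 202 in CHOW 7. Of 12 natural killer and cytotoxic genes 4 fell (Klra8, Ccl5, Klrk1 and Klrd1, from -0.58 to -0.30), where 22% of all genes did. Klra8 alone of these passed without CHOW 4. Only 1 of the 12 rose, near the 7.25% of all genes that did. This was Fasl, the ligand of Fas, at 0.28 ± 0.09 (adjusted p = 0.0484), which was 0.23 without CHOW 4 and did not pass (adjusted p = 0.338). It had a mean of 19.6 counts and is named after its value was seen. Of 11 lymph node genes none passed. Summed over 4 lymph node markers, counts ran from 73.8 in CHOW 8 to 265 in CHOW 5 and their part in the lymphoid slopes was not tested.

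**Figure D4:**
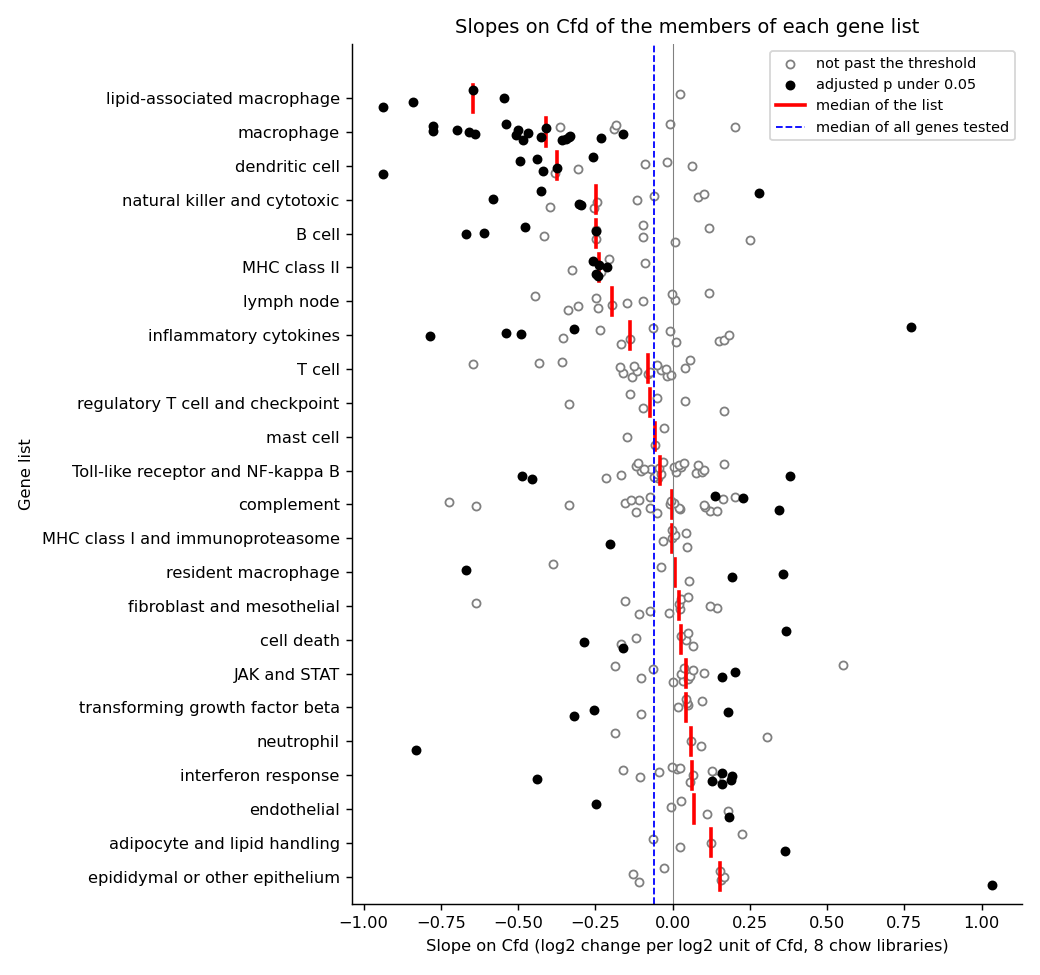
Slopes on Cfd of the members of 24 gene lists over the 8 chow libraries, filled where the adjusted p is under 0.05, with each list's median in red and the median of all tested genes dashed in blue. The lists of lipid-associated macrophages and of macrophages in general lie left of the dashed line with medians of -0.64 and -0.41, that of resident macrophages lies right of it at 0.0073, and T cell genes have no filled point.

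Of 6 endothelial genes 1 rose and 1 fell, a share near the 29.2% of all genes called. With TMM scaling 3 rose and 1 fell, and without CHOW 4 none passed. Cdh5, the junctional cadherin of vessels, rose with 0.18 ± 0.05 (SE, adjusted p = 0.0257; 0.14 and 0.253 without CHOW 4) and Vcam1 fell with -0.25 ± 0.06 (adjusted p = 0.019; -0.22 and 0.157 without CHOW 4), while Icam2 (0.18 ± 0.06, adjusted p = 0.0512) and Pecam1 (0.11 ± 0.06, adjusted p = 0.197) did not pass. None of 11 fibroblast and mesothelial genes passed, and 3 rose with TMM scaling. The summed counts of 3 endothelial markers were highest in CHOW 4 at 5128 and lowest in CHOW 5 at 2754, and their part in these slopes was not tested. Among the least variable genes with a mean of at least 50 were Fyn, Itgb1, Jak1, Tcf4, Tollip, Casp2 and Ifnar1, whose highest count was at most 1.19 times the lowest.

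Some of the most variable genes had patterns of their own. C7, a component of the complement pore, had 3699, 614, 1986, 826, 451, 646, 4437 and 646 counts in CHOW 1 to CHOW 8, and Cfi, which inactivates C3b, had 204, 56.1, 79.4, 22.7, 11.4, 21.4, 192 and 20.9. The same libraries, CHOW 1, 7 and 3, held the 3 highest values of each. Neither slope on Cfd passed ( -0.64 ± 0.28 and -0.72 ± 0.36, SE, adjusted p = 0.119 and 0.157). Cxcl13, the B cell attractant, had 115, 88.3, 92.5, 82.3, 191, 18.4, 118 and 13.95 counts, low in CHOW 6 and CHOW 8 and high in CHOW 5, with a slope of -0.24 ± 0.28 (adjusted p = 0.568). Over tested genes the median SD of log2 counts was 0.32, against 1.53 for Cfi, 1.34 for Itgax, 1.31 for Cxcl13, 1.28 for C7 and 1.22 for Cfd. The median ratio of highest to lowest count was 1.96.

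Slopes on the macrophage genes themselves largely had to mirror the Cfd result. Itgax had the exact reverse of the order of Cfd over the same 8 libraries, and Emr1 nearly so. The counts below are therefore no separate support for it. On Emr1, 97 genes were positive (20.7%) and 38 negative (8.1%), 135 in all (28.8%), and on Itgax 97 were positive (20.7%) and 26 negative (5.54%), 123 in all (26.2%). By exact permutation of rho, 61 genes ranked with Emr1 (13%) and 21 against it (4.48%), and 80 with Itgax (17.1%) and 25 against it (5.33%). With TMM scaling, 80 slopes were positive and 54 negative on Emr1, and 78 and 51 on Itgax. Without CHOW 4, 48 and 12 passed on Emr1, and 48 and 15 on Itgax. Trem2 rose by 1.61 per log2 unit of Emr1 and by 0.79 per log2 unit of Itgax, Tyrobp by 1.30 and 0.61, and Ctss by 1.55 and 0.76; Cfd itself fell by 1.80 and by 0.86. Slopes on Emr1 are given per unit of a gene with an SD of log2 of 0.63, and those on Itgax per unit of a gene with 1.34.

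The 40 libraries of the other diets took no part in the chow fits and give the same measure in other animals. Within those diets, with a mean per diet, 46 genes had a positive slope on Cfd (9.81%) and 63 a negative one (13.4%), 109 in all (23.2%). These were 35 and 37 without 4 libraries with high epithelial counts, none of them from chow. With the replicate block they were 19 and 14, although no label says that the numbers pair the libraries. Of the 34 positive genes on chow 17 were also called positive there (50% of the chow list and 36.96% of the other), and of the 103 negative genes 50 were called negative (48.5% and 79.4%). None was called in the opposite direction, and 32 of 34 and 96 of 103 had the same sign. The share of all tested genes with the same sign is not given here, so these sign counts have no yardstick. Pparg had a slope of 0.36 on chow and 0.18 within the other diets (adjusted p = 0.00687 there), Trem2 -0.84 and -0.32 (adjusted p = 0.016), Tyrobp -0.66 and -0.28 (adjusted p = 0.0253), Emr1 -0.48 and -0.29 (adjusted p = 0.0233) and Itgax -0.94 and -0.29 (adjusted p = 0.0522). S100a8, Cd74 and Klra8, which fell along Cfd on chow, had slopes between -0.05 and 0 within the other diets, none past the threshold.

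A test of the difference between the slope on chow and that within the other diets called 2 genes of 469 for Cfd (0.426%; 53 at an unadjusted p under 0.05), both lower on chow: Cd9 at -0.55 on chow and -0.20 in the other diets, a difference of -0.34, and Blnk with a difference of -0.45 (adjusted p = 0.00933 and 0.0496). Neither passed without CHOW 4 (adjusted p = 0.315 and 0.716). For Trem2 the difference was -0.53 (adjusted p = 0.123), for Itgax -0.66 (adjusted p = 0.123) and for Pparg 0.19 (adjusted p = 0.303), so no difference in slope was shown for these. For Emr1 23 differences were positive (4.9%) and 20 negative (4.26%), 43 in all (9.17%), and for Itgax 56 (11.9%) and 36 (7.68%), 92 in all (19.6%). Without CHOW 4, 4 differences passed for Emr1 and 21 for Itgax. Without the 4 libraries with high epithelial counts 1 difference passed on Cfd (0.213%, negative), 26 positive (5.54%) and 27 negative ones (5.76%) on Emr1, and 53 (11.3%) and 32 (6.82%) on Itgax. Within the other diets themselves, 302 slopes on Emr1 (64.4%) and 235 on Itgax (50.1%) passed. Some chow calls were called there in the opposite direction. On Emr1 these were 1 of 97 positive and 2 of 38 negative genes, and on Itgax 1 of 97 and 1 of 26.

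**Figure D5:**
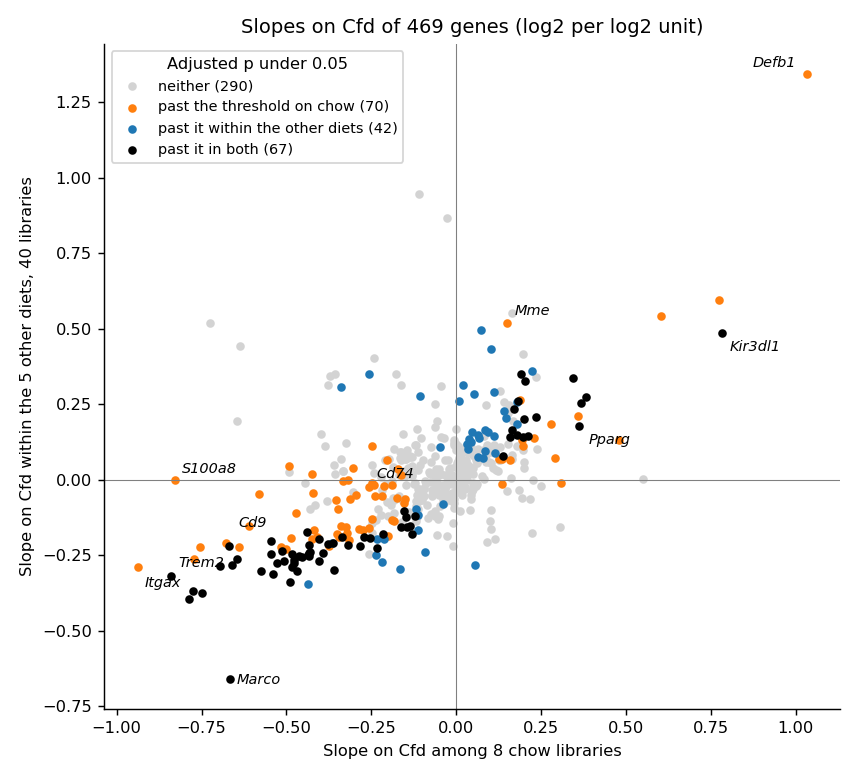
Slope on Cfd among the 8 chow libraries (horizontal) against the slope within the 5 other diets (40 libraries, vertical), in log2 per log2 unit, a point per gene for 469 genes. The 67 genes past the threshold in both lie in the lower left and upper right, with Trem2 at -0.84 on chow and -0.32 in the other diets.

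No gene's spread among chow libraries was shown to differ from that in the other diets. The SD of log2 Cfd was 1.22 on chow, against 1.01 on sucrose/palmitate, 0.46 on starch/palmitate, 0.92 on sucrose/oleate, 0.91 on starch/oleate and 0.44 on the Western diet, and that of Trem2 was 1.07, against 0.68, 0.57, 0.32, 0.29 and 0.82 in the same order. A test of absolute deviations from the group median (limma, chow minus the mean of the other diets) called 0 of 470 genes (0%; 24 at an unadjusted p under 0.05, and 2 called with a pseudocount of 10). The difference in deviation was 0.45 ± 0.23 for Cfd (SE, adjusted p = 0.872), 0.44 ± 0.19 for Trem2 (adjusted p = 0.813) and 0.46 ± 0.25 for Itgax (adjusted p = 0.872). In level, Cfd on chow, with 18982 to 222161 counts, overlapped sucrose/palmitate (9299 to 74784), starch/palmitate (10964 to 26812) and sucrose/oleate (5851 to 32851) and lay above starch/oleate (1089 to 7957) and the Western diet (4135 to 8851).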

How the data were processed

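The deposited table holds, per its values, whole-number counts of barcodes for each probe and library, without normalization; the authors' software is not given in the sources used here. All its columns were mapped by sample title (0 unused columns); its lowest value, 1, stood in 151 cells. Probes were named as deposited, and 549 of 561 matched RefSeq by accession. Counts were divided by the geometric mean of 14 reference genes. Slopes on centred log2 counts of Cfd, Emr1 and Itgax were fitted in R 4.3.3 by the quasi-likelihood functions glmQLFit and glmQLFTest of edgeR 4.0.16 and adjusted by Benjamini-Hochberg over 469 genes with a mean of at least 10 and a threshold of 0.05. Rank and linear correlations used exact permutation over 40320 pairings. Spread was tested with limma 3.58.1 on log2(count + 1). Alternatives used TMM, total count and positive control scaling, DESeq2 1.42.0, a minimum mean of 30, other covariate forms, and leaving out each library. In simulated counts for the Cfd slope over 469 genes, 27.9%, 69.7% and 100% of slopes of 0.25, 0.50 and 1.00 were recovered, and 2.23% of unchanged genes were called. The members, gene lists and markers were chosen with earlier results of these data known. The rule for naming genes took the highest levels, the steepest slopes, the strongest joint ranks, up to 4 members of each list by p on Cfd, and the 8 most and 8 least variable genes, plus a few fixed markers; other genes are listed only as members of a count or marker set. Some genes are not reported here.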

Additional observations from a re-analysis of the deposited data

Results flagged for a closer look

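Among 69 genes tested for a single library far from the rest, 17 were picked out, and in each the library was CHOW 4. Chance picks about 1 in 20 of independent groups, but these genes vary together and many were named for slopes or ranks that CHOW 4 bears on, so that rate is no yardstick for them. It was low for Cd74 (9031 scaled counts, against 14979 to 19662 in the other 7 libraries), H2-Aa (5324, against 8261 to 11022), H2-K1 (2814, against 4592 to 5642), Ctss (1551, against 5266 to 13622), Itgax (169, against 948 to 2808) and S100a8 (112, against 401 to 1251). It was also low for Il1rn (75.1, against 350.3 to 969), Itgb2 (565, against 1925 to 4980), Fcgr4 (27.4, against 96.7 to 243), Cd44 (665, against 1943 to 3642), Cybb (879.9, against 1893 to 3595) and Ly86 (258, against 509 to 879.96). It was high for Defb1 (221, against 7.97 to 31.4), Ptgs2 (330.2, against 33.1 to 56.7), Gata3 (197, against 22.9 to 43.6), Klra6 (26.2, against 6.75 to 10.4) and Cish (150.2, against 17.7 to 46.4).

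The 14 pairs of a named gene and an anchor flagged here had slopes on chow that differed from those within the other diets. The test was the interaction test of edgeR with Benjamini-Hochberg adjustment. They are not all that passed: over 469 genes, 2 did on Cfd (Cd9 and Blnk), 43 on Emr1 and 92 on Itgax. On Cfd, Cd9 differed by -0.34 (adjusted p = 0.00933). On Emr1 the slope was higher on chow for Cd9 (by 0.69, adjusted p = 0.00175), Ctss (0.59, 0.0311), Itgax (1.05, 0.0395), Lilrb4 (0.52, 0.0353) and Trem2 (0.68, 0.0151), and lower for Csf1r (-0.23, 0.0484) and Pparg (-0.68, 0.0063). On Itgax it was lower on chow for Crlf2 (-0.15, 0.0108), Csf1r (-0.30, 0.0203), Cybb (-0.27, 0.00418), Itga4 (-0.30, 0.0135) and Pparg (-0.40, 0.00283). S100a8 had a slope of 0.81 per unit of Itgax on chow and -0.81 within the other diets, a difference of 1.62 (adjusted p = 0.00028).

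Without CHOW 4 none of the 14 differences passed. On Cfd, Cd9 then differed by -0.29 (adjusted p = 0.315). On Emr1 the differences were 0.59 for Cd9 (adjusted p = 0.231), 0.15 for Ctss (0.7998), 0.22 for Itgax (0.829), 0.35 for Lilrb4 (0.621), 0.39 for Trem2 (0.612), -0.13 for Csf1r (0.71) and -0.56 for Pparg (0.315). On Itgax they were -0.04 for Crlf2 (adjusted p = 0.8803), -0.18 for Csf1r (0.771), -0.16 for Cybb (0.648), -0.17 for Itga4 (0.771), -0.55 for Pparg (0.0904) and 1.83 for S100a8 (0.0596). Differences outside the 14 did pass the same test without CHOW 4: over all genes, 4 on Emr1 and 21 on Itgax. Those on Itgax included Fn1, with a difference of -0.89 (adjusted p = 0.0112), and C7, with 2.40 (adjusted p = 0.0152).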

How the results depend on the processing

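CHOW 4 bore most on the counts. Leaving out each chow library in turn gave 75 to 149 genes on Cfd, 60 to 151 on Emr1 and 63 to 125 on Itgax, the lowest each time without CHOW 4, and 0 to 3, 4 to 55 and 21 to 96 differences from the other diets' slopes; on Emr1, 23 differences passed without CHOW 7. Without the libraries farthest from the median, 49 genes passed on Cfd, 84 on Emr1 and 29 on Itgax, and 82 passed on Emr1 by exact permutation of rho. With TMM scaling 1 difference on Cfd passed, and without the epithelium-high libraries 1 did and 72 slopes within the other diets passed. The spread test called 2 genes with a pseudocount of 10. Scaling moved the split of positive and negative slopes, most with the total count (140 and 15 on Emr1, 148 and 11 on Itgax) and the positive controls (126 and 10, 133 and 8). Of 76 named genes called on Cfd, 31 passed under every setting. Among named slopes past the threshold, those that turned sign did so without CHOW 4 or without the farthest libraries. Changes of sign between values that did not pass were not counted: Cd36 on Cfd, for example, ran from -0.065 to 0.083 over the settings. Leaving out 1 library gave -0.034 to 1.14 for Defb1 on Cfd and -0.997 to 0.15 on Itgax, -0.18 to 0.74 for Gata3 on Cfd, -1.56 to 0.12 on Emr1 and -0.68 to 0.30 on Itgax, and -0.60 to 0.11 for Cish on Itgax. Without the farthest libraries Gata3 had -0.095 on Cfd, 0.45 on Emr1 and 0.17 on Itgax. The cause was not tested.

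With the replicate block, 33 genes passed on Cfd within the other diets and 0 differences on Cfd. The labels do not say that a number is shared between diets. On average, same-numbered libraries deviated together no more than others (mean r -0.02 over 112 pairs, against 0.0072 over 846). Such an average cannot show whether some libraries share more than a number, so the numbers were treated as names only.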
